A study of Homo sapiens with 3 samples.

Results

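Liver-gene cells of blood vessel organoids, cultures of endothelial, mural and mesenchymal cells, were chosen by their own counts of 5 transcripts of liver secretory cells, ALB, AFP, APOA1, APOA2 and TTR, after 45 days of growth. A barcode was kept if it had 1000 or more UMIs (unique molecular identifiers, counted mRNA molecules) and 500 or more genes, with mitochondrial UMIs at 20% or less. A kept cell was a member if the 5 genes made up at least 1% of its UMIs and GNRH2 and MLN together had under 3 UMIs. This gave 106 members among the 5303 kept cells of the library labelled 15 days of induction (2.0%, exact Clopper-Pearson 95% interval 1.64 to 2.41), out of 23805 kept cells in all 3 libraries. Intervals here and below cover counting error only.

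H1, a human embryonic stem cell line in wide use, was the source of the organoids of every group, and its cells held a cassette, NEUROD1-P2A-GFP, switched on by doxycycline and placed with a PiggyBac transposon. The 3 groups had no induction, 15 days or 45 days of induction with 1 µg/ml doxycycline, and BDNF and NT-3 were in the medium of all of them from day 15. Neither the timing of the 15 days of induction nor whether the line was 1 clone is stated in the labels. Each group was 1 library of 5 to 6 pooled organoids, so no test between groups or within a library was possible and no p-value is given.

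Albumin and alpha-fetoprotein are plasma carrier proteins encoded by neighbouring genes, and alpha-fetoprotein is made in the fetal liver and the yolk sac and largely lost from the liver after birth. APOA1 and APOA2 are the main proteins of high density lipoprotein and are made in both liver and intestine, and transthyretin (TTR) carries thyroid hormone and retinol-binding protein. Yolk sac endoderm and fetal intestine share part of this secretory programme with the liver, so these genes alone do not identify a hepatocyte.

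The genes lie on different chromosomes except for ALB and AFP, which are neighbours on the plus strand of chromosome 4 (GRCh38, GENCODE 29): ALB (ENSG00000163631) at 73397114 to 73421412 and AFP (ENSG00000081051) at 73431138 to 73456174. APOA1 (ENSG00000118137) lies on chromosome 11 at 116835751 to 116837950, APOA2 (ENSG00000158874) on chromosome 1 at 161222292 to 161223631, and TTR (ENSG00000118271) on chromosome 18 at 31557010 to 31599021. The promoters of the ALB and AFP pair are shown because the members divided by which of these neighbouring genes they held. RefSeq sequences (GRCh38.p14) of the 250 bases before each transcript start are given 5′ to 3′, plus strand, at chr4:73404037-73404286 for ALB and chr4:73435971-73436220 for AFP. Capitals mark matches on either strand to GTTAAT (the first part of the site of HNF1 factors), CAAAG (the first part of the HNF4 site), TATAAA and CCAAT.
ALB: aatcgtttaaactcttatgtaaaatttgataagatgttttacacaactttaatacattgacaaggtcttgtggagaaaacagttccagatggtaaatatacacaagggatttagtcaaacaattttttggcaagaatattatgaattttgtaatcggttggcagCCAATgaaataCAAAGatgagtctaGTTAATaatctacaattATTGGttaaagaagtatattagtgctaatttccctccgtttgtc
AFP: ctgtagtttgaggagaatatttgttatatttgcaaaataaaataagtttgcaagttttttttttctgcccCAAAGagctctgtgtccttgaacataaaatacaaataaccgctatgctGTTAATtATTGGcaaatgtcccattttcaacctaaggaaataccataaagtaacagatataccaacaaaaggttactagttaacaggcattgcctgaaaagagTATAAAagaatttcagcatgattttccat
Both promoters held GTTAAT, from base 61 to 56 before the start in ALB and from base 132 to 127 in AFP. Of the 35116 promoters in the RefSeq table, 6.23% held GTTAAT, 42.1% CAAAG, 10.7% TATAAA and 32.0% CCAAT in the same 250 bases. TATAAA was found in the AFP window and not in the ALB window. A match is a description of letters, not evidence of a bound site.

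In the 3 libraries, 10232, 5962 and 10765 barcodes held 59879923, 49488425 and 64171327 UMIs for none, 15 and 45 days. The 8858, 5303 and 9644 kept cells had medians of 5306, 7368 and 5697 UMIs. Members of the 15 day library were deeper, with a median of 17099 UMIs (1051 to 71740) against 7351 in the 5197 other cells, and 10 of the 106 had under 2000 UMIs. NEUROD1, the induced transcription factor, made up 0 of 1929814 UMIs in the members of that library and 68 of 46187191 in its other cells. The level in the other cells was below that of 3 UMIs in the members, so the 0 cannot show a difference. Transcripts of the cassette may also end beyond the gene as annotated. The libraries pairwise shared 13, 33 and 15 barcodes, and 1 member barcode of the 15 day library was also kept at 45 days.

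The other libraries held few such cells. Without induction 12 of 8858 kept cells met the rule (0.135%, 0.0700 to 0.237), and at 45 days 1 of 9644 did (0.0104%, 0.000263 to 0.0578). The uninduced library held 23 further cells that met every criterion but had at least 3 UMIs of GNRH2 plus MLN, against 14 at 15 days and 0 at 45 days. Counted over all kept cells, ALB had 18695 UMIs in the 15 day library, 389 CPM (counts per 1000000 UMIs), against 19 UMIs without induction and 10 at 45 days. AFP had 38518 UMIs at 15 days, 6598 without induction and 91 at 45 days. The uninduced library thus held AFP without ALB above single UMIs, as its highest ALB count in any cell was 1.

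**Figure D1:**
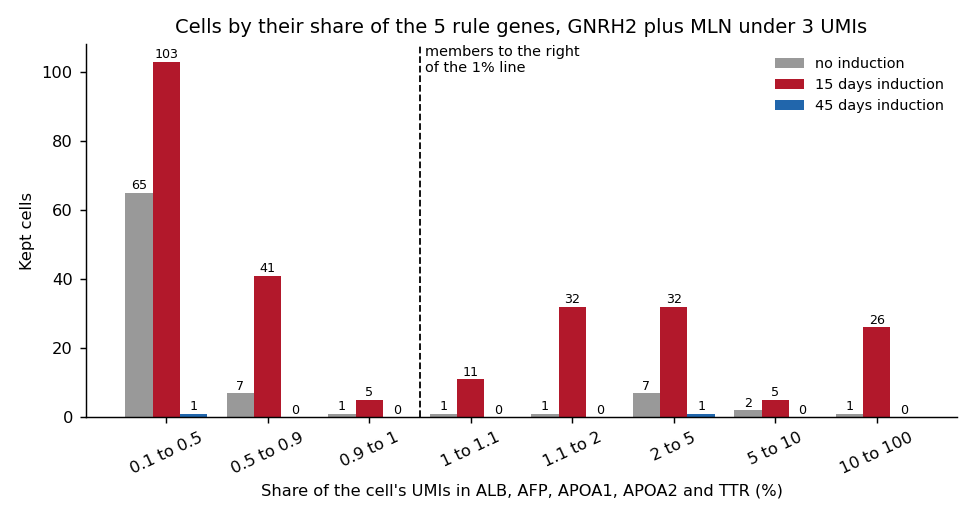
Number of kept cells (y axis) by the share of their UMIs in the 5 rule genes (x axis, bins of unequal width), for cells with under 3 UMIs of GNRH2 plus MLN and a share of at least 0.1%, per library. The 15 day library held 106 cells right of the 1% line, 26 of them at 10% or more, against 12 cells without induction and 1 at 45 days.

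The share of the rule genes did not fall into 1 group of cells. In the 15 day members it ran from 1.02% to 25.1% with a median of 2.29%, with 32 members at 1.1 to 2%, 32 at 2 to 5%, 5 at 5 to 10% and 26 at 10% or more. Just inside the threshold, 11 members had 1 to 1.1%, and just outside it 5 cells had 0.9 to 1%. These shares chose the members and are given as a description.

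The members held 3 patterns of ALB and AFP, each separated by a gap. In 24 members ALB ran from 0.275% to 12.1% of a cell's UMIs (median 3.80%), while the highest value among the other 82 was 0.0835%. Of those 82, 33 had AFP from 0.192% to 11.8% (median 1.01%), and in the remaining 49 AFP reached at most 0.0862%. The 3 sets are called ALB-high, AFP-high and AFP-low, with the line at 0.1% of UMIs for each gene. They were drawn after the values were seen, so differences in ALB and AFP between them follow from the choice.

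**Figure D2:**
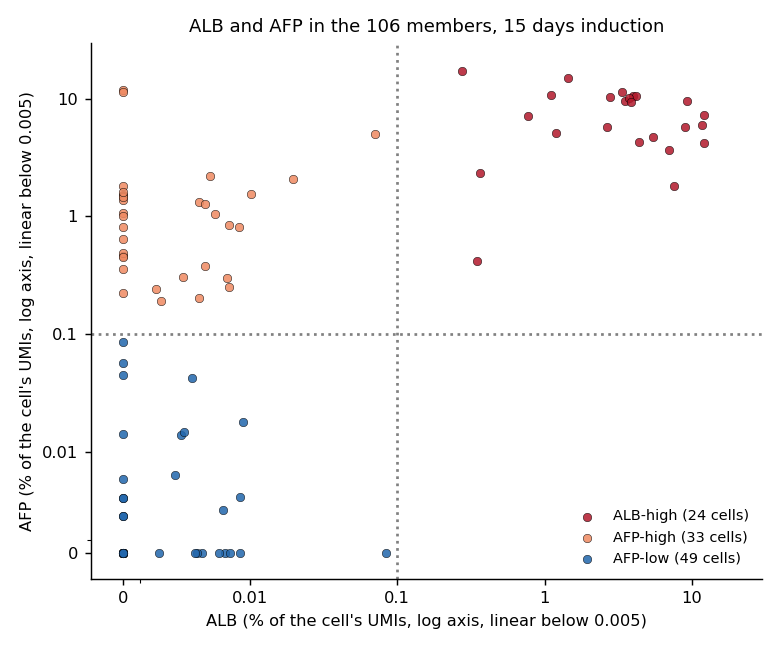
ALB (x axis) against AFP (y axis) in each of the 106 members of the 15 day library, in percent of the cell's UMIs on log axes that are linear below 0.005; dotted lines mark 0.1%, and cells with the same value overlap. The 24 ALB-high cells all lie above both lines, and no member has ALB between 0.0835% and 0.275%.

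The label of hepatocyte-like cells was given for all members, and ALB, its first marker, was above 0.1% of UMIs only in the set cut on it. The ALB values that follow describe the sets and carry no test. Summed over the set, ALB stood at 49121 CPM in ALB-high, 48.8 CPM in AFP-high and 21.3 CPM in AFP-low cells, against 21.2 CPM in the other cells of the library. Cells with at least 3 UMIs of PECAM1 plus CDH5, endothelial genes, had 18.2 CPM of ALB. The 24 ALB-high cells held 94.5% of the library's ALB UMIs. After thinning to 2000 UMIs per cell, which left out 4, 1 and 5 cells, an ALB UMI was seen in 20 of 20 ALB-high, 1 of 32 AFP-high (3.13%, 0.0791 to 16.2) and 2 of 44 AFP-low cells (4.55%, 0.555 to 15.5). In the endothelial cells it was seen in 12 of 334 (3.59%, 1.87 to 6.19), with 17.4% of them before thinning and 48.5% and 32.7% of AFP-high and AFP-low cells. The median depth was 5166, 18513 and 17318 UMIs in the ALB-high, AFP-high and AFP-low sets and 9040 in the endothelial cells. Depth in the ALB-high set was uneven, from 1213 to 54993 UMIs with quartiles of 2506 and 27136. Its summed levels therefore weigh the deep cells most, while its medians and counts of cells weigh each cell alike.

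AFP separated the sets as the cut requires, at 67739, 10789 and 70.5 CPM in ALB-high, AFP-high and AFP-low. APOA1 was graded, with a median of 2.01% of UMIs in ALB-high (0.209 to 4.25), 0.546% in AFP-high (0.0646 to 5.56) and 0.338% in AFP-low cells (0.0173 to 2.95). APOA2 followed at medians of 2.04%, 0.631% and 0.355%. The sets overlapped for both genes.
TTR differed least in summed level between the 3 sets among the 5 rule genes. Its medians were 1.09% in ALB-high (0.0697 to 2.07), 0.580% in AFP-high (0 to 7.95) and 0.801% in AFP-low cells (0 to 2.92), and the summed levels were 10058, 8912 and 8375 CPM. TTR was the highest of the 5 genes in 29 of 49 AFP-low cells and in 0 of 24 ALB-high cells, in which AFP led in 15, ALB in 8 and APOA2 in 1. AFP-low cells are low in ALB and AFP by the cut, so they met the 1% share mainly through APOA1, APOA2 and TTR. The lead of TTR in many of them and its even level over the sets thus follow in part from the rule. TTR stood at 22.5 CPM in the endothelial cells and 73.0 CPM in all other cells of the library.

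CST1, a salivary-type cystatin that inhibits cysteine proteases, was given as a sixth marker and did not mark the ALB-high cells (ENSG00000170373, chromosome 20, 23747553 to 23751268, minus strand). It had a UMI in 2 of 24 ALB-high, 5 of 33 AFP-high and 41 of 49 AFP-low cells, and stood at 5.56, 191 and 1028 CPM. In AFP-high cells 52% of its UMIs came from 1 cell. Members held 16.6% of the 6311 CST1 UMIs of the library. Most of the rest, 81.1% of the library's total, were in 62 other cells with at least 3 CST1 UMIs, whose median share of the rule genes was 0.476%. Its relative CST4 followed at 2.78, 35.5 and 121 CPM, while CST3, the widely made cystatin C, stood at 336, 730 and 1266 CPM, and CST5, CST6, CST7 and CSTA were at 0 in all members.

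**Figure D3:**
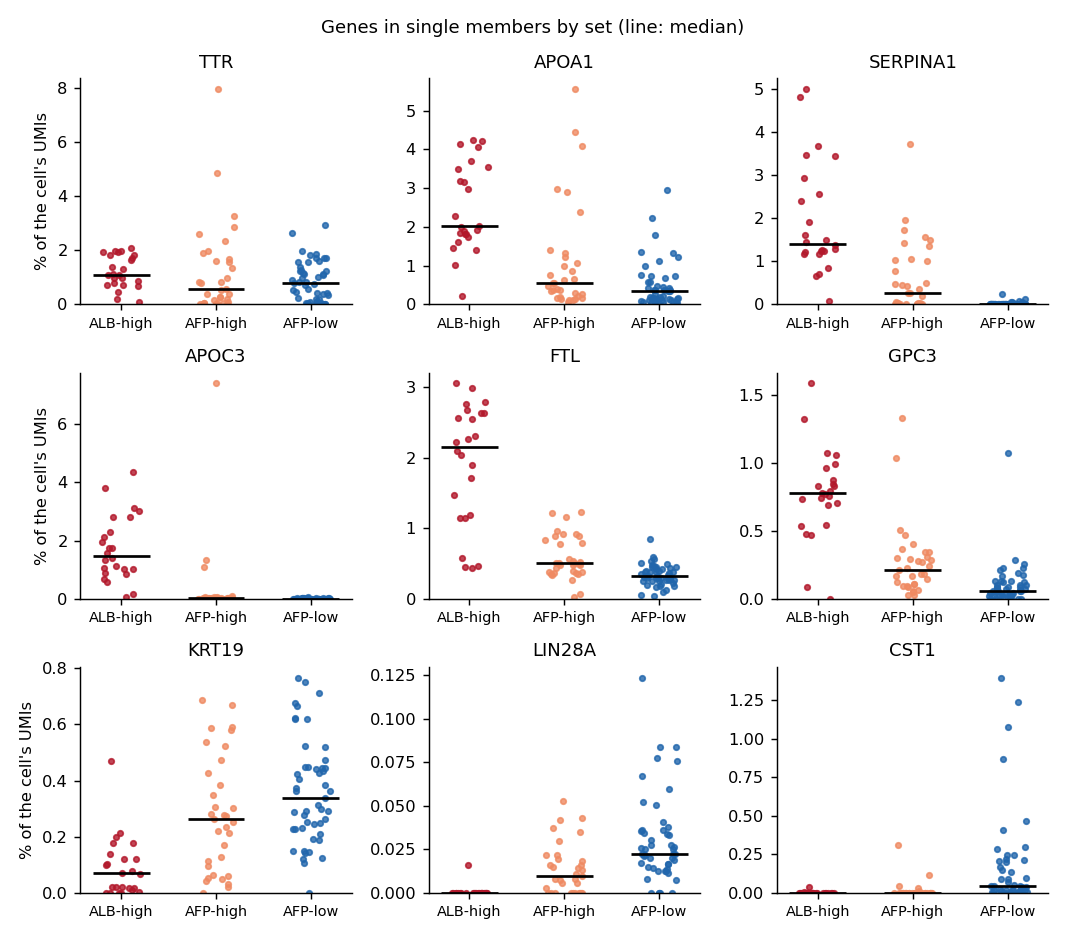
Share of UMIs (y axis, percent) of 9 genes in each of the 106 members by set (x axis, sideways scatter for visibility); black lines are medians. SERPINA1, APOC3, FTL and GPC3 have their highest medians in ALB-high cells, KRT19, LIN28A and CST1 in AFP-low cells, and TTR overlaps in all 3 sets.

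Against the 5197 other cells of the library, all members together held the liver secretory genes at high levels and little RNA of the vascular, mesenchymal and neuronal cells around them. Among the 3568 genes at 50 CPM or more on at least 1 side, members had 213 (5.97%) at a 4-fold or higher level and 270 (7.57%) at a 4-fold or lower one, on the log2 scale with 5 CPM added, with a median log2 ratio of -0.13. These counts describe size and are not calls. Outside every list, the leading genes were SERPINA5, a plasma protease inhibitor (217 against 1.88 CPM), LEAP2, a secreted peptide of the liver (363 against 11.5 CPM), A1CF, the partner of the APOB mRNA editing enzyme (139 against 2.38 CPM), and LIN28A, an RNA-binding protein of early embryonic cells (198 against 5.76 CPM). NPPB and CGA, also among the 25 leading genes, owed 65.7% and 52.2% of their member UMIs to 1 cell. The 6 lowest outside the lists were MGP (2.07 against 190 CPM), NFIB (1.04 against 133 CPM), CXCL14 (2.07 against 140 CPM), SNCG (6.22 against 221 CPM), THY1 (8.29 against 230 CPM) and NCAM1, at 0 in members against 79.5 CPM.

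Genes for plasma proteins were highest in the ALB-high set. Of 25 genes for plasma carriers and inhibitors, 19 passed the level of 50 CPM and 18 were at least 4-fold above the other cells in ALB-high, 8 in AFP-high and 4 in AFP-low cells, with list medians of 4.72, 1.17 and 0.19 (log2, over all 25). Of all genes tested, 8.56%, 5.6% and 5.63% were that much higher in these sets, with medians of -0.86, -0.06 and 0.04, and 17.6%, 6.04% and 7.39% lower. SERPINA1, the main inhibitor of neutrophil elastase, had a median of 1.41% of UMIs in ALB-high (0.0697 to 4.99), 0.264% in AFP-high (0 to 3.72) and 0% in AFP-low cells (0 to 0.233), and summed levels of 25817, 6531 and 155 CPM. AHSG, fetuin-A, stood at 9057, 550 and 10.1 CPM, where 12.7 CPM was the level of the other cells. VTN, vitronectin, varied less, with 1688, 1093 and 858 CPM against 24.9 CPM. SERPINA3, SPP2 and AFM had 0 UMIs in all members.

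Lipoprotein genes showed the same order with a shared base. Of 20 genes for lipoprotein assembly, 14, 9 and 6 were at least 4-fold higher than in other cells in ALB-high, AFP-high and AFP-low cells, with medians of 4.39, 1.95 and 0.87. The list summed to 7849 CPM in AFP-low cells and to 7471 CPM in the 62 other cells with at least 3 CST1 UMIs. APOE, the carrier of lipoprotein remnants, stood at 10790, 6321 and 5910 CPM against 474 CPM. APOC3, an inhibitor of triglyceride clearance, differed far more, at 21443, 691 and 29.1 CPM, and 50% of the AFP-high UMIs came from 1 cell. The ratio of ALB-high to AFP-low was 737 for APOC3 (conditional binomial interval 503 to 1129) and 1.83 for APOE (1.75 to 1.90). APOC4 and CETP were at 0 in members.

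Of 20 genes for coagulation and fibrinolysis, 13, 8 and 6 were at least 4-fold higher, with medians of 4.37, 2.04 and 0.60. The fibrinogen chain FGB stood at 4077, 830 and 172 CPM against 12.3 CPM, and prothrombin (F2) at 395, 257 and 181 CPM against 4.37 CPM. Factor IX (F9) was at 0 in every set. Of 20 complement and acute phase genes 3, 1 and 1 were at least 4-fold higher. Over all genes tested the share was 8.56%, 5.6% and 5.63%, so the counts of 1 are near it. The list summed to 1162, 160 and 126 CPM against 49.7 CPM, with C3 at 698, 32.5 and 2.24 CPM. C4A, C4B, MBL2, CRP, SAA1 and SAA2 were at 0 in members.

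**Figure D4:**
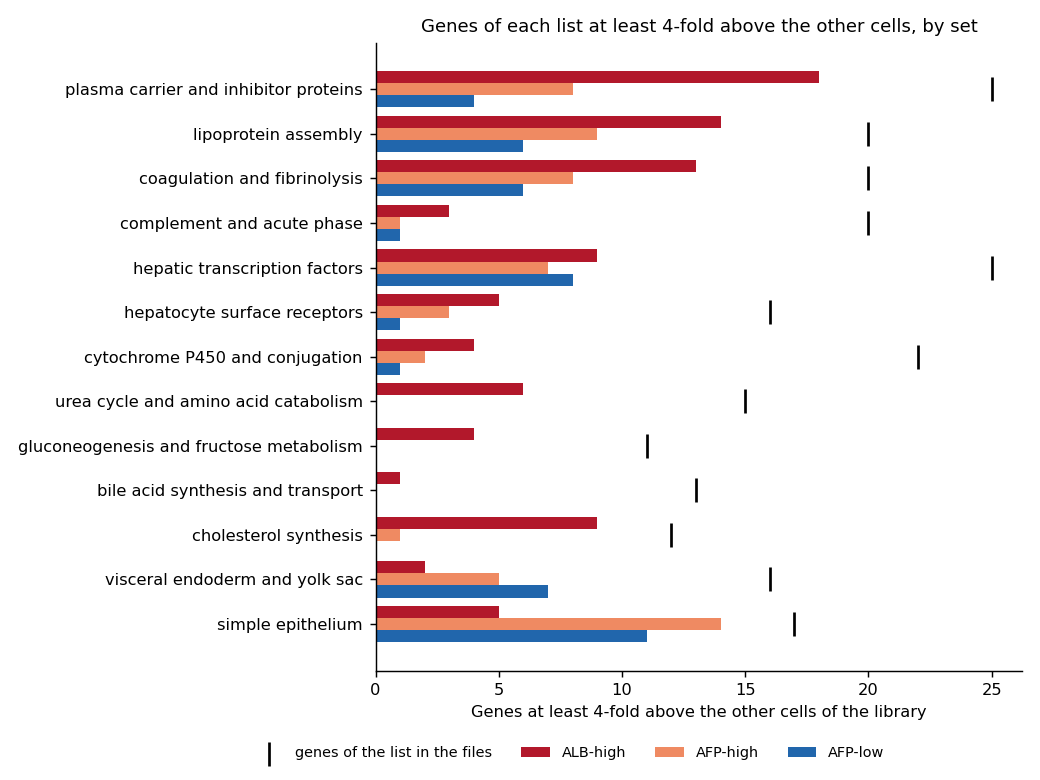
Number of genes in each list (x axis) at least 4-fold above the other cells of the 15 day library, by set (bars), with the number of list genes in the files (black ticks). ALB-high has the longest bar in every list shown except the visceral endoderm and simple epithelium lists, where AFP-high or AFP-low has more.

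Transcription factors of the liver were spread over all sets. Of 25, 9, 7 and 8 were at least 4-fold higher in ALB-high, AFP-high and AFP-low cells, with medians of 2.39, 1.62 and 0.97. HNF4A, a master regulator of hepatic and intestinal epithelium, stood at 41.7, 57.7 and 42.5 CPM against 2.34 CPM, and its intervals of the ratio between sets included 1. FOXA2, an endoderm pioneer factor, ran the other way from the secretory genes, at 58.4, 123 and 204 CPM. HHEX, needed for liver bud formation, stood at 164, 265 and 296 CPM, and CEBPA, a factor of differentiated hepatocytes, at 334, 90.2 and 33.6 CPM. NR1I2, the xenobiotic receptor PXR, was at 0 in members.

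Some genes of adult liver metabolism were at least 4-fold above the other cells, mainly in ALB-high cells, with the highest summed levels there. Of 15 genes for the urea cycle and amino acid catabolism 6, 0 and 0 were at least 4-fold higher than in other cells, with medians of 2.99, 0.11 and -0.01. For gluconeogenesis and fructose metabolism the counts were 4, 0 and 0 of 11, for cytochrome P450 and conjugation enzymes 4, 2 and 1 of 22, and for bile acid synthesis and transport 1, 0 and 0 of 13. Over all genes tested the share was 8.56%, 5.6% and 5.63%, so list counts of 1 or 2 are too few to set apart from it. The cytochrome P450 and conjugation list summed to 1910, 423 and 221 CPM against 72.8 CPM in other cells. CPS1, the entry enzyme of the urea cycle, stood at 80.6, 10.4 and 17.9 CPM against 9.22 CPM. CYP3A7, the fetal cytochrome P450, had UMIs in 11 of 24 ALB-high cells, at 203 CPM, and in 0 cells of the other sets, at least 45.8-fold above AFP-high and at least 60.5-fold above AFP-low with 3 UMIs over the set as the floor. CYP3A4, its adult counterpart, had 0 UMIs in members. PCK1, an enzyme of gluconeogenesis, had 186 CPM in ALB-high cells, 43% of it from 1 cell.

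Cholesterol synthesis stood out in ALB-high cells, where 9 of 12 genes were at least 4-fold higher, against 1 in AFP-high and 0 in AFP-low cells, with medians of 2.51, 0.46 and 0.58. HMGCS1, an early enzyme of the pathway, stood at 865, 78.4 and 64.9 CPM against 48.2 CPM, and DHCR7, the last step, at 487, 109 and 94.0 CPM against 21.5 CPM. Of 17 genes of the general secretory pathway 2, 0 and 0 were that much higher. Of 16 hepatocyte surface receptors 5, 3 and 1 were, among them the asialoglycoprotein receptor chain ASGR1, at 898, 120 and 21.3 CPM against 36.7 CPM.

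Among fetal liver genes, 4, 2 and 0 of 10 were at least 4-fold higher, AFP included. GPC3, an oncofetal proteoglycan, had a median of 0.776% of UMIs in ALB-high (0 to 1.59), 0.214% in AFP-high (0.0281 to 1.34) and 0.0573% in AFP-low cells (0 to 1.07), and IGF2 stood at 331, 81.3 and 4.47 CPM. Of 13 genes for iron and metal handling 4, 6 and 2 were that much higher. FTL, ferritin light chain, stood at 18470, 6552 and 3489 CPM against 3195 CPM in other cells. The metallothioneins MT2A, MT1X and MT1E of the AFP-high count came from 1 cell to 97%, 86% and 99% of their UMIs.

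Part of the simple epithelium genes were above the other cells in each set. Of 17 genes of simple epithelium 5, 14 and 11 were at least 4-fold higher than in other cells in ALB-high, AFP-high and AFP-low, with medians of 1.70, 2.63 and 2.45. Compared directly, 0 of the 17 were at least 4-fold lower in ALB-high than in AFP-high or AFP-low cells and 2 were higher than in AFP-low cells, with medians of -0.92 and -0.82 near the medians of all genes (-0.72 and -0.87). KRT19, a keratin of simple epithelium and bile duct, had medians of 0.0689%, 0.262% and 0.338% of UMIs and summed levels of 1068, 3135 and 3504 CPM. EPCAM stood at 414, 682 and 817 CPM against 69.1 CPM. Of 16 genes listed for visceral endoderm and yolk sac 2, 5 and 7 were at least 4-fold higher, with medians of 0.35, 2.35 and 2.29. Compared directly, 4 of these 16 were at least 4-fold lower in ALB-high than in AFP-low cells and 1 lower than in AFP-high cells. Of all genes tested, 14.6% and 8.16% were that much lower. The medians of these 16 genes were -1.55 and -1.19, against -0.87 and -0.72 for all genes. Neither list was particular to the members. In the 62 other cells with at least 3 CST1 UMIs the visceral endoderm list summed to 1132 CPM, against 1040 CPM in AFP-low cells. The simple epithelium list summed to 8337 against 7880 CPM in the same groups. SOX17, an endoderm and endothelial factor, stood at 5.56, 19.2 and 72.7 CPM against 19.01 CPM, and OTX2 at 8.34, 10.4 and 62.6 CPM against 3.53 CPM. CER1, a defining gene of anterior visceral endoderm, had 1 UMI in all members.

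LIN28A had a UMI in 1 of 24 ALB-high, 23 of 33 AFP-high and 44 of 49 AFP-low cells, at 13.9, 169 and 294 CPM. The ratio of ALB-high to AFP-low was 0.0473 (0.0152 to 0.112). FN1, fibronectin, a product of both hepatocytes and mesenchyme, stood at 2976, 6401 and 6618 CPM against 459 CPM and was the single gene of 12 in the mesenchymal list that was at least 4-fold higher in members.

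The direct comparison of sets, with genes chosen after their values were seen, gave a short distance between AFP-high and AFP-low and a long one to ALB-high. Between AFP-high and AFP-low, 51 of 3355 genes (1.52%) lay 4-fold or more above and 20 (0.596%) as far below. Between ALB-high and AFP-low, 225 of 3369 (6.68%) were higher and 492 (14.6%) lower, and between ALB-high and AFP-high 138 of 3137 (4.4%) higher and 256 (8.16%) lower. In the comparisons of ALB-high the median gene lay below 0 (-0.87 and -0.72 on the log2 scale). With median-of-ratios scaling the counts became 284 higher and 199 lower against AFP-low, and 180 and 94 against AFP-high, and against other cells 363 and 311 in place of 300 and 618. Lower calls in ALB-high are therefore relative to that shift. At the low end of ALB-high against AFP-low stood ERBB4 (a neuregulin receptor, 0 against 313 CPM, at least 37.5-fold lower), CCKBR (0 against 281 CPM, at least 33.7-fold lower), PODXL (0 against 138 CPM, at least 16.5-fold lower) and FBLN2 (2.78 against 262 CPM). In AFP-low against AFP-high, LHX1 stood at 61.5 against 0 CPM and CYP26A1 at 86.1 against 2.96 CPM.

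Cycling genes differed by set too. Their list summed to 19.5 CPM in ALB-high, 673 in AFP-high and 468 in AFP-low cells, against 484 in other cells, and 4 of 10 were at least 4-fold lower in ALB-high than in AFP-low cells. TOP2A stood at 2.78, 121 and 59.3 CPM, with 62% of the AFP-high UMIs in 1 cell, and MKI67 at 0, 62.1 and 22.4 CPM, with 50% in 1 cell.

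Across the 96 members with at least 2000 UMIs, each thinned to that number, some secretory genes varied together. TTR varied little with those named below. Spearman's rho was 0.86 for APOC3 and AHSG, 0.83 for AFP and SERPINA1, 0.81 for ALB and APOC3, -0.52 for AFP and CST1 and -0.51 for AFP and KRT19. For TTR it was 0.14 with ALB, 0.13 with AFP, -0.17 with APOA1 and 0.0025 with SERPINA1. Of the 96 thinned cells, 23 held a UMI of ALB, 28 of APOC3 and 29 of AHSG, so most cells were tied at 0 for these genes. The sets were pooled, so rho also carries the differences between them. The points are cells of 1 library, and shares of 1 cell's UMIs constrain each other. The rule can also lower rho of TTR with the other rule genes, since a cell low in them is a member only if its TTR is high. Without TTR in the rule, 72 cells of the 15 day library are members.

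RNA of other cell types was low in the members. Mesenchymal genes other than FN1 summed to 202 CPM in members and 3361 CPM in other cells (6.00%), with 0 of 11 genes at 0, and COL1A1 stood at 29.02 against 340 CPM. The neuron list summed to 156 against 4482 CPM (3.48%) with 1 of 14 at 0, which was NEUROD1. The endothelial list summed to 92.8 against 989 CPM (9.38%) with 3 of 14 at 0 and PECAM1 at 1.04 against 99.9 CPM, and the mural list to 126 against 725 CPM (17.4%). No member had over 2% of its UMIs in these lists without FN1. The haematopoietic list summed to 57.5 against 287 CPM with 5 of 13 at 0, and in 1 ALB-high cell of 1434 UMIs it took 4.18% of UMIs, with 51 UMIs of the C1Q genes beside 5 of ALB and 6 of AFP. That cell is absent from the values at 2000 UMIs or more, under which the ALB-high set kept 20 cells with 302 genes higher and 626 lower than in other cells. Doublet scoring marked 4 of the 106 members, all AFP-high, and 253 of the 5303 kept cells of the library. That share, 4.77%, was set in advance, so the count does not measure how many members were doublets.

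The same library held 14 cells with the same 1% share and at least 3 UMIs of GNRH2 plus MLN, which the rule leaves out. GNRH2 encodes a gonadotropin-releasing peptide and MLN the gut hormone motilin, which had 0 UMIs in these 14 cells. Among 3287 genes, members had 57 (1.73%) at least 4-fold higher and 90 (2.74%) as far below. ALB stood at 9180 CPM in members, nearly all of it in the ALB-high set, against 9.86 CPM, HHEX at 261 against 4.93 CPM and NPY at 117 against 0 CPM. AFP was at 16436 CPM in members and 12503 CPM in the 14 cells, APOA1 at 9874 and 16110 CPM, and the lipoprotein list summed to 15684 and 21162 CPM. Lower in members were CDX2, the intestinal identity factor (4.15 against 71.5 CPM), and the intestinal cadherin CDH17 (0.518 against 71.5 CPM, 76% of it from 1 cell). Of 16 intestinal genes 4 were at least 4-fold lower in members and 0 higher, GNRH2 being 1 of those 4 by the rule. AFP-high cells and these cells differed in 85 genes (2.51%) higher and 61 (1.8%) lower in the GNRH2 and MLN cells out of 3382.

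**Figure D5:**
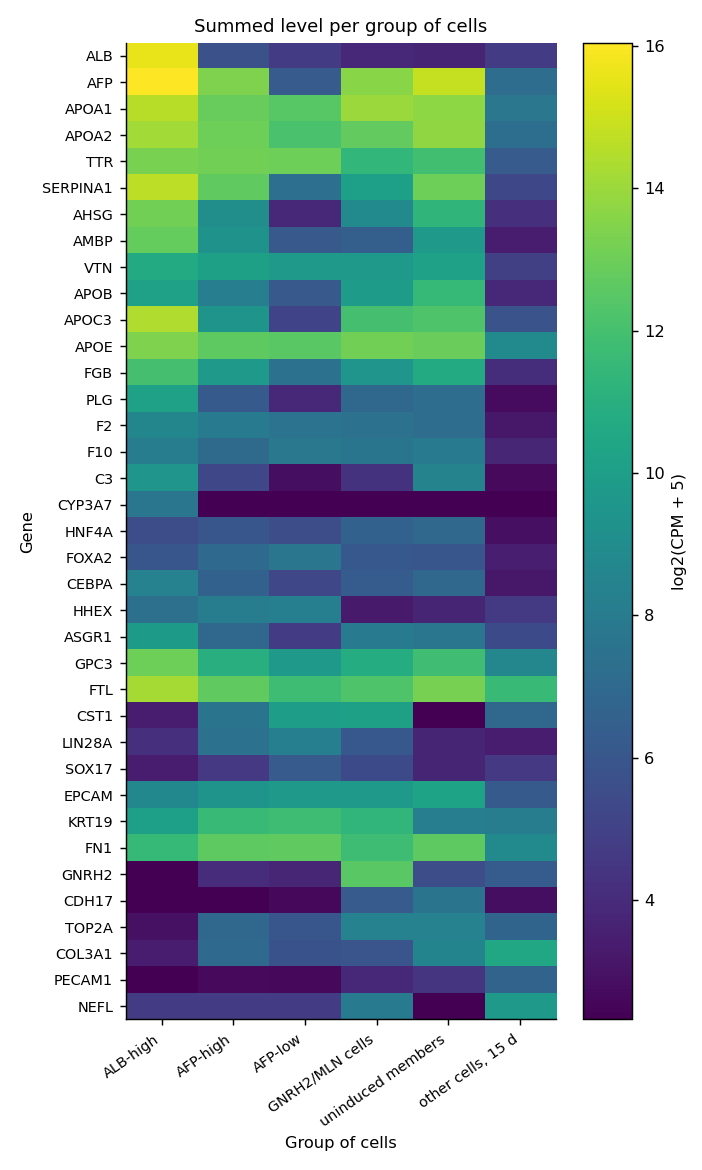
Summed level of 37 genes (rows) as log2 of CPM plus 5 (colour) in 6 groups of cells (columns): the 3 sets of members, the 14 cells with GNRH2 or MLN, the 12 members without induction and the other cells of the 15 day library. CYP3A7 is above the bottom of the scale in the first column only, ALB is highest there, and TTR, VTN and APOE are lowest in the last column.

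The 12 members of the uninduced library were all AFP-high, and the ALB-high and AFP-low sets had 0 of 8858 cells there, which allows up to 0.0339% each by the limit of 3 counts of the total and 0.0416% by the exact Clopper-Pearson bound. They held 117884 UMIs, 31.0% of them from 1 cell, and 1 ALB UMI in all. Summed, AFP stood at 29682 CPM, APOA1 at 13547 CPM and TTR at 3758 CPM, with CST1 at 0. Another cell, of 32879 UMIs, held 2320 of the 3499 AFP UMIs. The median AFP share was 0.822% of a cell's UMIs, against 1.01% in AFP-high cells at 15 days. Beside the AFP-high cells at 15 days, 154 of 3519 genes (4.38%) lay 4-fold or more above and 198 (5.63%) as far below without induction. Among the higher genes, 3 chosen after their values were seen were RBP2, a retinol-binding protein of enterocytes, at 543 against 4.44 CPM, the mucin MUC13 at 212 against 0 CPM and CDH17 at 187 against 0 CPM, with 8, 4 and 5 of the 12 cells holding a UMI. RBP2 also stood at 167 CPM in the ALB-high cells at 15 days. By list, 4 of 16 intestinal genes and 4 of 11 genes of gluconeogenesis and fructose metabolism were at least 4-fold higher. So were 3 of 25 plasma protein, 3 of 20 lipoprotein and 3 of 20 coagulation genes. Genes as far below included 1 plasma protein gene, 2 of 25 hepatic transcription factors and 3 of 13 iron and metal genes. AHSG stood at 2536 against 550 CPM, but 3 of the 12 cells held a UMI. In the cell of 32879 UMIs AHSG took 0.897% of UMIs. APOC3 took 1.15% there, against a median of 0.0751%. The libraries were 1 capture each, so induction, organoid pool and capture cannot be told apart. The single member at 45 days had 3482 UMIs, with 68 of AFP, 36 of APOA2, 10 of APOA1 and 0 of ALB and TTR.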

How the data were processed

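The values are raw UMI counts per gene and barcode in 3 matrices, deposited by the authors without normalization. Per the submitters' processing notes they came from Cell Ranger 3.0.0 on GRCh38, and the file headers name software version 3.0.1. Per the labels' protocols, organoids were dissociated with papain and captured for 3′ libraries (Chromium v3 chemistry). Free RNA from broken cells is counted in other droplets.

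Counts were summed over cells and scaled to CPM. Ratios are log2 with 5 CPM added, and genes at 50 CPM or more on at least 1 side were counted when 4-fold or more apart. Sums carry exact Poisson, shares Clopper-Pearson and folds conditional binomial 95% intervals. Doublets were scored with Scrublet in scanpy 1.11.5 at 0.8% per 1000 barcodes and stayed in the main values. Tested on simulated data for members against other cells (3036 genes), the fold rule found 98.0% of 50 genes changed 8-fold, 14.0% of 50 changed 4-fold and 0 of 2837 unchanged genes. Both simulated sums were Poisson draws from a shared profile, without variation between cells. The result for unchanged genes therefore covers counting error only and cannot show genes driven by single cells.

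Members and gene lists were chosen with earlier results of these data known. Genes named were the rule genes, the up to 4 highest members of each list among those 4-fold higher, defining genes at 0, the 25 highest and 10 lowest ratios outside lists, and a few fixed markers. List genes named beyond these were chosen after their values were seen. Of 33538 gene identifiers, 33456 were found in GENCODE 29, and 3 of 6 promoters looked up were in the RefSeq table. Alternative cell filters, rule variants, floors and scalings were run.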

Additional observations from a re-analysis of the deposited data

Results flagged for a closer look

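Barcodes left out by the cell filter were used in no comparison above. Of the 659 left-out barcodes of the 15 day library, 50 held ALB at 0.1% or more of their UMIs (7.59%, exact Clopper-Pearson 95% interval 5.68 to 9.88), with a median of 795 UMIs and at most 131 ALB UMIs. In the uninduced library 15 of 1374 did (1.09%, 0.612 to 1.79), with at most 2 ALB UMIs, and at 45 days 0 of 1121. Among kept cells of the 15 day library 26 reached that share. At such depths 1 ALB UMI can reach 0.1%, and the part of free RNA in these barcodes was not tested.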

How the results depend on the processing

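Of 133 alternative values for member shares, set sizes and counts of genes, 110 stayed within the interval of the share or within 1.5 times the count. The share in the 15 day library was 2.87%, 1.19% and 0.585% with the threshold at 0.5%, 2% and 5%, 1.36% for the rule without TTR and 0.754% for ALB plus AFP alone. The uninduced share was 0.238% without a mitochondrial limit, 0.395% without the limit on GNRH2 plus MLN, 0.0339% at 5% and 0.0564% for ALB plus AFP, and at 45 days 0 cells reached 5%. For members against other cells, 442 genes were at least 4-fold lower at 5%, 549 with no floor, and 135 were higher and 126 lower at a floor of 100 CPM. Against the GNRH2 and MLN cells the counts were 142 and 147 with no floor. The set alternatives were chosen after seeing the data. Median-of-ratios scaling gave 311, 94 and 199 genes lower in ALB-high against other, AFP-high and AFP-low cells. The mean of per-cell CPM gave 427 lower against AFP-high, and 39 lower for AFP-high against AFP-low. With the line at 0.5% of UMIs, AFP-high held 21.7% and AFP-low 58.5% of members. In members against other cells, CST1 was 2.21 higher on the log2 scale in the main analysis, -3.84 at a threshold of 5% and -3.42 with ALB plus AFP alone. CCKBR was 3.35, and -1.82 with ALB plus AFP alone. Of the alternative values for single named genes, 1204 stayed within the counting interval of the main ratio, 873 left it and these 3, of genes at least 4-fold apart, changed sign. LIN28A, 4.24 higher, was 1.02 at a threshold of 5%, and the lowest values of NPY, NPPB and CGA over the alternatives were 1.34, 1.24 and 0.52, under 4-fold. The threshold of 5% and the rule of ALB plus AFP keep no AFP-low cells, by construction. Those cells reached at most 3.75% in the 5 rule genes and had ALB and AFP each under 0.1% of UMIs. No paired analysis was possible because each group is 1 library. Leaving out a replicate was not run for the same reason.

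The 24 ALB-high cells hold 359603 UMIs, so a gene at 0 there is bounded at 8.34 CPM (3 UMIs), and the cells of 1 library say nothing of the spread between organoids.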

Other observations

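Genes of pluripotent stem cells, chosen after LIN28A was seen, were looked up in the same sums. In members SOX2, NANOG and DPPA4 were at 0 CPM and POU5F1 at 0.518 CPM, against 3.36, 1.15, 3.90 and 3.53 CPM in the other cells of the library. LINC00458, a noncoding RNA of stem cells, stood at 152 CPM in AFP-low, 26.6 CPM in AFP-high and 0 CPM in ALB-high cells, and L1TD1 at 61.5, 13.3 and 2.78 CPM. EOMES, a factor of early endoderm, stood at 34.7 CPM in AFP-low, 4.44 CPM in AFP-high and 2.78 CPM in ALB-high cells.

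VIM, the intermediate filament of mesenchymal cells, stood at 86.2 CPM in ALB-high, 754 in AFP-high and 223 in AFP-low cells, against 5103 CPM in other cells. IGFBP3 stood at 253, 645 and 1637 CPM in the same order, against 386 CPM, and at 32.1 CPM in the GNRH2 and MLN cells.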
